A study of Mus musculus with 9 samples.

Results

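The Ikaros zinc finger family has 5 genes in the mouse, Ikzf1 to Ikzf5, which encode Ikaros, Helios, Aiolos, Eos and Pegasus. They were taken by gene symbol from the table of transcript levels in activated CD8 T cell clones, where all 5 are among the 24060 genes listed. All 5 also passed the filter on low values (a level above 1 TPM in at least 1 library; TPM is a length-corrected level with 1 common total for all libraries), which kept 11330 genes.

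Ikaros family proteins bind DNA with a block of zinc fingers near the amino terminus, and pair with themselves and with each other through zinc fingers at the carboxy terminus. They recruit chromatin remodelling and histone deacetylase complexes, and they can repress or activate the genes they bind. Ikaros is needed for lymphocyte development and raises the threshold at which T cells respond to their receptor, Aiolos is best known in B cells and activated T cells, Helios and Eos are best known in regulatory T cells, and Pegasus is the most distant member of the family.

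The cells came from 3 transnuclear (TN) mouse lines, R7-I, R7-II and R7-III, each made by nuclear transfer from 1 CD8 T cell that recognised the ROP7 peptide of Toxoplasma gondii on H-2Ld. Each line therefore carries the T cell receptor of 1 clone. All 3 are on a BALB/c background that is proficient for Rag2, so other lymphocytes are present in the spleen, and the ages of the mice are not given. The submitters order the receptors by affinity for ROP7 as R7-I, R7-III, R7-II from high to low, and by self-reactivity as R7-III, R7-I, R7-II. Splenocytes of each line were cultured overnight with ROP7 peptide (10 µM) and IL-2 (10 ng/ml), tetramer-positive CD8 T cells were sorted to a purity of 90 to 95%, and 3 libraries of polyadenylated RNA were made per line. No library of unstimulated cells is used here, so every value is a level after activation. The labels call the 3 libraries of a line biological replicates but do not say that each came from its own mouse, and p-values measure only the spread between these libraries.

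The protein-coding sequence places Ikzf1 to Ikzf4 close together and Ikzf5 apart. On GRCm38, the build also called mm10, Ikzf1 lies at chr11:11684962-11772930 and encodes 515 residues, Ikzf2 at chr1:69531207-69687351 (526 residues), Ikzf3 at chr11:98464610-98546031 (507 residues), Ikzf4 at chr10:128630839-128669671 (586 residues) and Ikzf5 at chr7:131388649-131410518 (419 residues). A search of the annotated coding sequences for a Cys2His2 finger pattern, with a Cys allowed in place of the last His, matched 5 fingers in each of Ikzf1 to Ikzf4 and 4 in Ikzf5. Fingers of another spacing are missed by this pattern, so these are counts of matches and not of all fingers. The second finger is shown because it is part of the DNA-binding block and is the same in Ikzf1 to Ikzf4 at the level of residues. Each line below is exonic coding sequence, 5′ to 3′, with the codons of the zinc-binding Cys and His in capitals.
Ikzf1 (chr11:11754024-11754086, plus strand): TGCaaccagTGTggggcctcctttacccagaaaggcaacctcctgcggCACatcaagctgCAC
Ikzf2 (chr1:69570581-69570643, minus strand): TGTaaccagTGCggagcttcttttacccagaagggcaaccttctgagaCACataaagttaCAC
Ikzf3 (chr11:98488940-98489002, minus strand): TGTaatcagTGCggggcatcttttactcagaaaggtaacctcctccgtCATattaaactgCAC
Ikzf4 (chr10:128640229-128640291, minus strand): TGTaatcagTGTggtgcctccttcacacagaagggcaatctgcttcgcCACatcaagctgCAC
Ikzf5 (chr7:131392501-131392563, minus strand): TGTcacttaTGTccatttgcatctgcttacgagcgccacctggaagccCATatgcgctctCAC
These 63 bases encode the same 21 residues in Ikzf1, Ikzf2, Ikzf3 and Ikzf4, although only 76.2 to 84.1% of the bases are the same between any pair of them. The second finger of Ikzf5 shares 5 of 21 residues with each of the others, and these include the zinc-binding Cys and His that the pattern requires. Fingers were matched by their order alone, which may set fingers that do not correspond side by side. The 66-base finger is finger 3 in Ikzf5 but finger 4 in Ikzf1, Ikzf2 and Ikzf4. The 5 of 21 is therefore not a measure of how far Ikzf5 lies from the others. In the last matched finger Ikzf5 shares 12 to 14 of 21 residues with the others, against 17 to 21 among Ikzf1 to Ikzf4. The longest run of bases that any pair of members shares, over all their annotated transcripts, is 32 (Ikzf2 and Ikzf4). This is shorter than the 100-base reads, so a read without mismatches cannot fit 2 members over its whole length.

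The libraries of a clone resembled each other more than those of other clones, with Pearson correlations of log2(TPM + 1) across genes of 0.992 to 0.997 within clones and 0.959 to 0.991 between them, and no pair of libraries held the same values. All 8 CD8 T cell markers examined were present, and their summed level was 2286 to 2322 TPM in R7-I cells, 3219 to 3258 TPM in R7-II cells and 2500 to 2548 TPM in R7-III cells. Lck, a kinase of T cell receptor signalling and the most abundant of them, averaged 400.4 ± 7.28, 526.2 ± 10.6 and 385.6 ± 22.8 TPM in the same order (SD, n = 3). Markers of other cells were low but differed between clones. The 8 B cell markers summed to 8.14 to 15.2 TPM in R7-I cells, 34.2 to 71.2 TPM in R7-II cells and 4.92 to 7.40 TPM in R7-III cells, led by Cd79b, a part of the B cell receptor, with 13.7 to 25.4 TPM in R7-II cells. The 6 myeloid markers in the table summed to 3.99 to 4.87, 20.8 to 70.5 and 5.03 to 6.19 TPM, led by Lyz2, a lysozyme gene, in R7-II cells and by Cd68, a lysosomal membrane protein named after its values were seen, in the other clones. The 5 CD4 and regulatory T cell markers summed to 3.19 to 3.60, 13.95 to 18.8 and 3.04 to 3.83 TPM, mostly from Gpr83 in R7-II cells, and Foxp3 did not exceed 1.07 TPM and Cd4 did not exceed 1.00 TPM in any library. NK cell markers did not exceed 0.17 TPM in sum, with Klrb1c at 0.09 TPM or less. The plasmacytoid dendritic cell list summed to 179.3 to 213.1, 100.6 to 172.7 and 199.4 to 224.9 TPM, most of it Bst2, which interferon induces in many cell types; Siglech, the defining marker of that list, did not exceed 0.05 TPM. Ccr9, a chemokine receptor of that list that T cells also carry, named after its values were seen, was higher in R7-II, with 10.8 to 19.8 TPM there and 1.42 to 1.77 TPM in the other libraries. The part of these cells in the results below was not tested, and in bulk RNA a change in the number of cells of a type cannot be told apart from a change in RNA per cell.

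**Figure D1:**
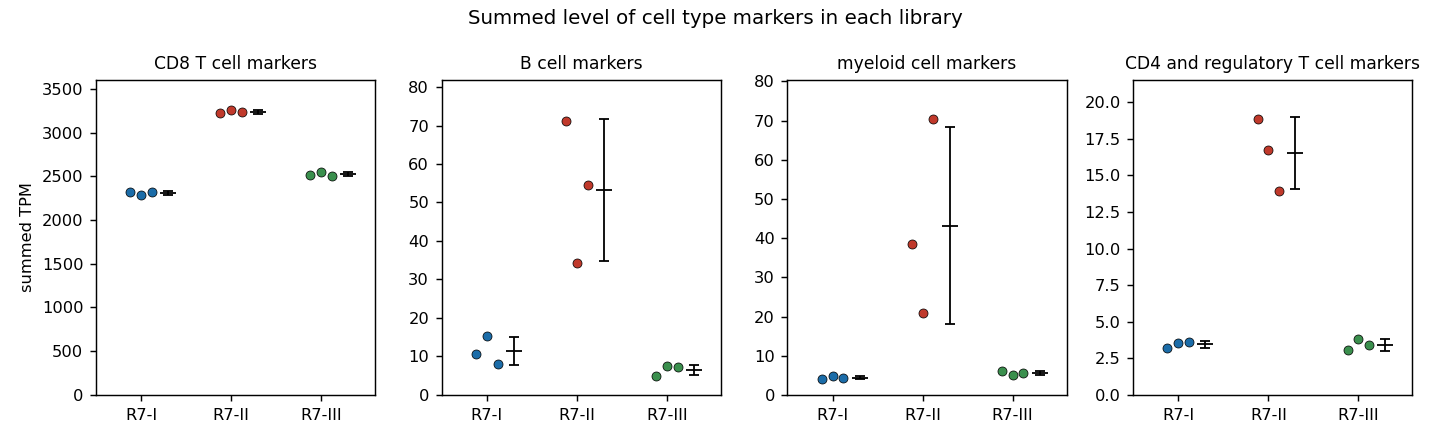
Summed TPM of the marker genes of 4 cell types (y axes, from 0) in each library (points) of the 3 clones, with the clone mean and SD in black (n = 3). B cell markers sum to 34.2 to 71.2 TPM in R7-II cells and to no more than 15.2 TPM in the other libraries.

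Activated CD8 T cells of all 3 clones contained the RNA of all 5 family members, over a wide range of levels. Ikzf1 was the most abundant member in every library, followed by Ikzf3 and then Ikzf5, and the ranges of these 3 genes did not overlap in any clone. In R7-I the mean level of Ikzf1 was 3.70 times that of Ikzf3, and Ikzf3 was 3.12 times Ikzf5. Averaged over the 9 libraries, 92.8% of the genes tested had a lower level than Ikzf1, 75.9% a lower level than Ikzf3 and 41.6% a lower level than Ikzf5. Ikzf4 and Ikzf2 were the least abundant members, above 23.7% and 21.1% of the genes tested. Their order changed between the clones. In R7-I the levels of Ikzf2 and Ikzf4 overlapped, in R7-II Ikzf4 was 2.15 times Ikzf2, and in R7-III Ikzf2 was 1.63 times Ikzf4, in both cases without overlap.

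The family was compared between the clones to ask whether cells with receptors of different affinity and self-reactivity differ in these regulators after the same stimulus. R7-II, last in the order of affinity, had the highest RNA level of Ikaros, Aiolos, Eos and Pegasus, and Aiolos and Eos were more than 2-fold above both other clones. Helios followed another order and was highest in R7-III. With limma on log2(TPM + 1), 4 of 5 members (Ikzf1, Ikzf3, Ikzf4 and Ikzf5) were higher in R7-II cells than in R7-I cells at an adjusted p of 0.01, and the same 4 were higher in R7-II cells than in R7-III cells. Such calls were common: 40.6% of all genes tested were called higher and 15.5% lower in R7-II cells than in R7-I cells, and 35.6% higher and 18.0% lower in R7-II cells than in R7-III cells. More than 2-fold calls in the same direction against both clones were rarer, with 4.17% of genes higher and 1.11% lower in R7-II, and 2 of 5 members, Ikzf3 and Ikzf4, were among the former. Between R7-III and R7-I, 6.96% of genes were called higher and 1.45% lower in R7-III, and 1 of 5 members, Ikzf2, was called higher. The comparisons with R7-II share the R7-II libraries, so they are not independent of each other. The share of all genes called in both of them, without a limit on the fold, was not computed.

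**Figure D2:**
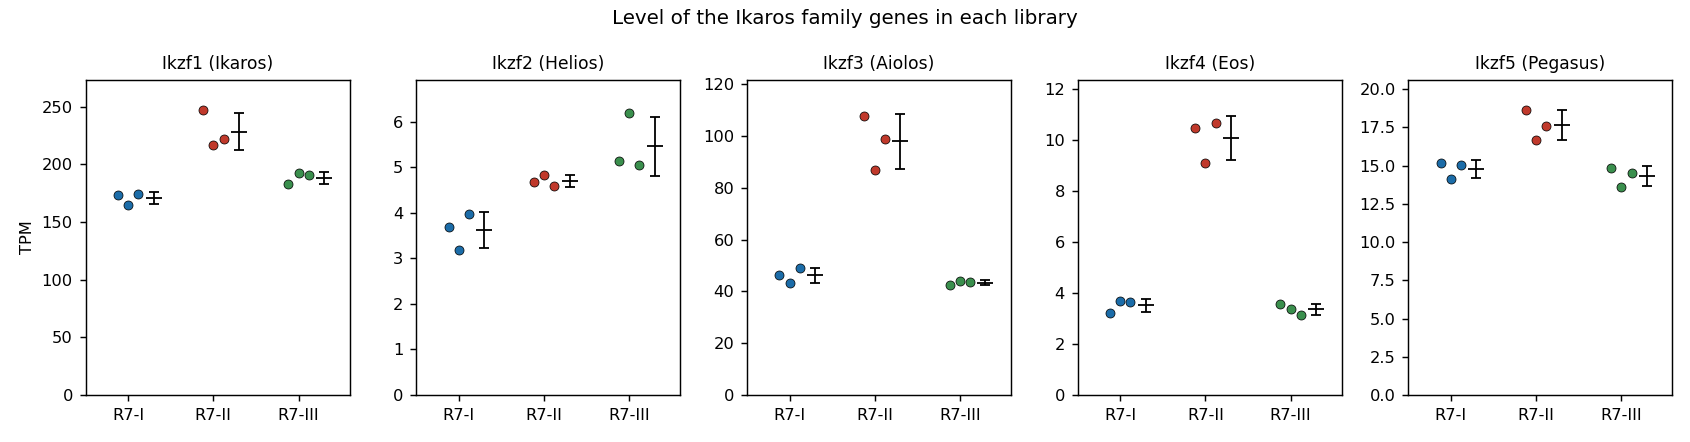
TPM (y axes, from 0, a separate scale for each gene) of the 5 Ikaros family genes in each library (points) of the 3 clones, with the clone mean and SD in black (n = 3). The R7-II libraries lie above all others for Ikzf1, Ikzf3, Ikzf4 and Ikzf5, while for Ikzf2 the R7-III libraries are highest, at 5.04 to 6.20 TPM.

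Ikzf1 encodes Ikaros, the founding member. Its level was 173.1, 164.4 and 174.5 TPM in the R7-I libraries, 246.5, 216.6 and 221.5 TPM in R7-II cells, and 182.5, 192.0 and 190.7 TPM in R7-III cells. The lowest R7-II library lay above every library of the other clones, and the lowest R7-III library lay above every R7-I library. The R7-II mean was 1.34 times the R7-I mean, a difference of 0.42 on the log2(TPM + 1) scale (SE 0.048, limma adjusted p = 2.44e-05), and 1.21 times the R7-III mean (difference 0.27, adjusted p = 4.88e-04). R7-III exceeded R7-I by 0.14, with a 95% interval of 0.037 to 0.25, and this did not pass the threshold (adjusted p = 0.0625). The table gives 1 value per gene, and the splice forms of Ikaros, some of which lack DNA-binding fingers, are not separated in it.

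Ikzf3 encodes Aiolos, which pairs with Ikaros. It measured 46.5, 43.1 and 48.9 TPM in R7-I cells, 108.0, 87.0 and 98.8 TPM in R7-II cells, and 42.3, 44.1 and 43.8 TPM in R7-III cells. R7-II lay far above the other clones, whose ranges overlapped. The R7-II mean was 2.12 times that of R7-I (difference 1.07 on the log2 scale, SE 0.071, adjusted p = 6.22e-07) and 2.26 times that of R7-III (difference 1.15, adjusted p = 3.65e-07). R7-III and R7-I differed by -0.09, with an interval of -0.24 to 0.073 (adjusted p = 0.455). Aiolos is abundant in B cells, and within R7-II the library with the highest sum of B cell markers, replicate 1 with 71.2 TPM, had the highest Ikzf3, and replicate 2, with the lowest sum (34.2 TPM), had the lowest Ikzf3. Replicate 2 of R7-II had 87.0 TPM of Ikzf3, and its B cell marker sum, like those of the other R7-II libraries, was above the highest of the other clones (15.2 TPM). Without replicate 1 of R7-II, the differences were 0.99 against R7-I and 1.08 against R7-III. Ikzf1 (246.5, 221.5 and 216.6 TPM) and Ikzf5 (18.7, 17.6 and 16.7 TPM) had the same order of R7-II replicates 1, 3 and 2. The B cell marker sum had this order too (71.2, 54.4 and 34.2 TPM). The part of B cells in the levels of Ikzf1, Ikzf3 and Ikzf5 was not tested.

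Ikzf4 encodes Eos, a corepressor-binding member known from regulatory T cells, and it showed the largest differences of the family on the log2 scale in both comparisons with R7-II. Its level was 3.20, 3.67 and 3.65 TPM in R7-I cells, 10.5, 9.08 and 10.7 TPM in R7-II cells, and 3.56, 3.38 and 3.12 TPM in R7-III cells. R7-II was separate from the other clones, which overlapped. The R7-II mean was 2.87 times that of R7-I (difference 1.30, SE 0.088, adjusted p = 6.89e-07) and 3.00 times that of R7-III (difference 1.35, adjusted p = 5.07e-07). R7-III and R7-I differed by -0.05, with an interval of -0.24 to 0.15 (adjusted p = 0.752). Ranked by log2 difference among the 11330 genes tested, Ikzf4 was at place 386 from the top against R7-I and at place 294 against R7-III, and Ikzf3 was at places 600 and 400. Gpr83, a gene of regulatory T cells, was also higher in R7-II cells, at 10.0 to 15.3 TPM, than elsewhere, at 1.10 to 1.84 TPM. Within R7-II Gpr83 was lowest in replicate 3, where Ikzf4 was highest. The other markers of that list, Foxp3, Cd4, Lrrc32 and Zbtb7b, had the order of Ikzf4 within R7-II. They were highest in replicate 3 and lowest in replicate 2, at 1.07 TPM or less. Foxp3, which defines those cells, averaged 0.90 ± 0.244 TPM in R7-II cells, 0.423 ± 0.135 TPM in R7-I cells and 0.257 ± 0.067 TPM in R7-III cells. Cd4 was also higher on average in R7-II cells, at 0.98 ± 0.026 TPM, than in R7-I (0.30 ± 0.114 TPM) and R7-III cells (0.377 ± 0.133 TPM). Lrrc32, of the same marker list, averaged 0.90 ± 0.243, 0.82 ± 0.148 and 0.81 ± 0.218 TPM in R7-I, R7-II and R7-III cells. It was called in no comparison. Zbtb7b, also listed, averaged 0.26, 0.743 and 0.593 TPM in the same order and did not pass the filter on low values. Foxp3 passed the threshold against R7-III (difference 0.59, limma adjusted p = 0.00410) but not against R7-I (0.41, adjusted p = 0.0251), and the part of such cells in the Ikzf4 level was not tested. The myeloid marker sum of the R7-II libraries had the same order as Ikzf4 in them, highest in replicate 3 and lowest in replicate 2.

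The reads do not mark strand, so genes near a member were also examined. Suox, which encodes sulfite oxidase, lies 215 bases from Ikzf4. It measured 13.8 to 16.6 TPM in R7-I cells, 31.8 to 34.9 TPM in R7-II cells and 18.1 to 19.0 TPM in R7-III cells, and it was higher in R7-II cells than in R7-I cells by 1.08 (adjusted p = 3.86e-07) and than in R7-III by 0.79 (adjusted p = 3.05e-06). Suox and the other neighbours named here were chosen after the values had been seen.

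Ikzf2 encodes Helios. It measured 3.68, 3.19 and 3.98 TPM in R7-I cells, 4.67, 4.83 and 4.59 TPM in R7-II cells, and 5.14, 6.20 and 5.04 TPM in R7-III cells. The order of the clones was R7-I, R7-II, R7-III from low to high, with no overlap between any of them. The step from R7-I to R7-III was 0.48 on the log2 scale (SE 0.097, adjusted p = 0.00671), with an R7-III mean 1.51 times the R7-I mean. This call rested on every library: when any 1 of the 6 libraries of these clones was left out, the difference was 0.40 to 0.54 and the adjusted p rose above 0.01. R7-II exceeded R7-I by 0.31 and did not pass (adjusted p = 0.0159), and R7-II minus R7-III was -0.18, with an interval of -0.39 to 0.037 (adjusted p = 0.128). At levels of a few TPM, a difference on the log2(TPM + 1) scale understates the ratio of the levels.

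Ikzf5 encodes Pegasus. It measured 15.2, 14.1 and 15.0 TPM in R7-I cells, 18.7, 16.7 and 17.6 TPM in R7-II cells, and 14.9, 13.6 and 14.5 TPM in R7-III cells. R7-II lay above the other clones without overlap, and R7-I and R7-III overlapped. The differences were small, 0.24 against R7-I (SE 0.060, adjusted p = 0.00436) and 0.28 against R7-III (adjusted p = 0.00175), and neither passed the threshold under another scaling of the libraries, as given next. R7-III minus R7-I was -0.04, with an interval of -0.17 to 0.092 (adjusted p = 0.687). The 3′ end of Ikzf5 overlaps the gene span of Pstk, a kinase of selenocysteine synthesis on the other strand, over 4120 bases, and 81.3% of the exon bases of Ikzf5 are also exonic in some Pstk transcript when all GENCODE transcripts are counted, but 0 bases are shared in the basic set. How far the RefSeq models used for the levels overlap was not examined, so the Ikzf5 value is uncertain to that extent. Pstk measured 12.5 to 16.1 TPM in R7-I cells, 16.7 to 18.1 TPM in R7-II cells and 15.8 to 17.8 TPM in R7-III cells, and was called in none of the 3 comparisons. On its other side Ikzf5 lies 82 bases from Acadsb, an acyl-CoA dehydrogenase gene, which measured 6.11 to 6.66, 10.7 to 12.4 and 6.94 to 8.42 TPM in the same order of clones.

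TPM values depend on what else is expressed. Over all genes tested, the median log2 difference was 0.17 for R7-II minus R7-I, 0.12 for R7-II minus R7-III and 0.04 for R7-III minus R7-I. Relative to that median, Ikzf4 was higher in R7-II by 1.13 against R7-I and 1.22 against R7-III, Ikzf3 by 0.90 and 1.03, Ikzf1 by 0.25 and 0.15, and Ikzf5 by 0.08 and 0.16. When each library was divided by a median-of-ratios factor, which centres most genes on no change, the share of calls that were higher fell from 72.4% to 46.1% against R7-I, from 66.4% to 46.8% against R7-III, and from 82.8% to 56.6% between R7-III and R7-I. Ikzf1, Ikzf3 and Ikzf4 remained called with that scaling. The Ikzf1 differences became 0.23 (adjusted p = 4.23e-04) and 0.14 (adjusted p = 0.00833). Those of Ikzf5 were 0.07 (adjusted p = 0.280) and 0.16 (adjusted p = 0.0205), and the step of Ikzf2 from R7-I to R7-III was 0.44 (adjusted p = 0.0113).

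**Figure D3:**
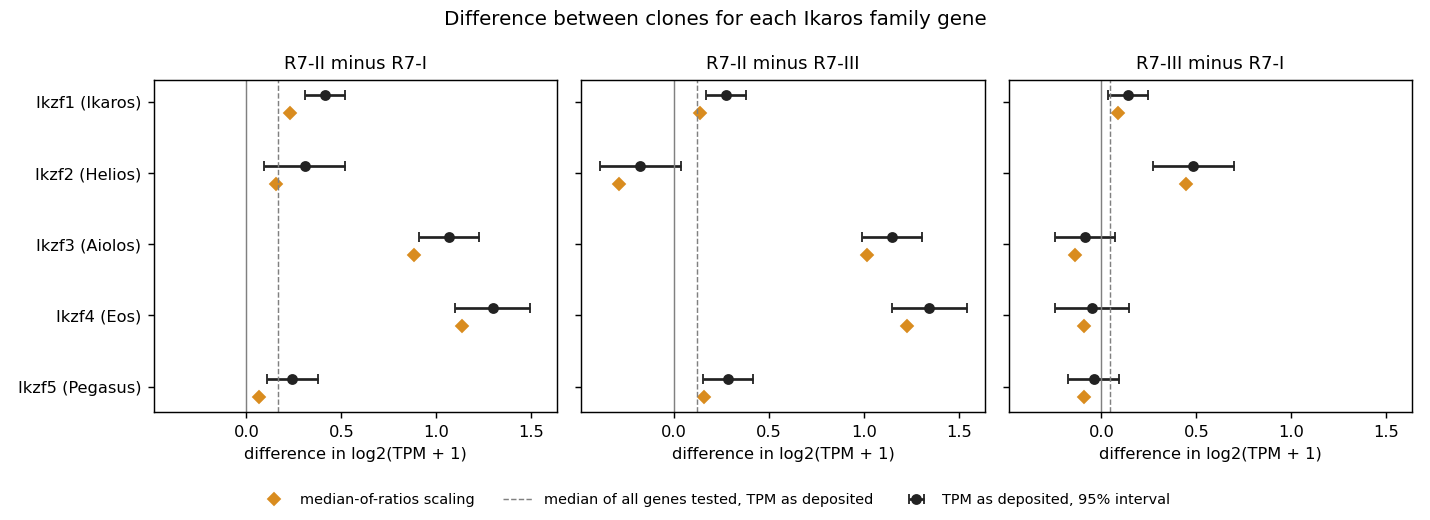
Difference in log2(TPM + 1) (x axes) between clones for each family gene, from TPM as deposited (black, with 95% interval) and after median-of-ratios scaling (orange diamonds), beside 0 (solid line) and the median of all genes tested (dashed line). Ikzf3 and Ikzf4 lie well to the right of both lines in the comparisons with R7-II, and Ikzf2 does so between R7-III and R7-I.

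Ratios of members within a library do not depend on that scaling, and they were used to compare the make-up of the family between the clones. The summed level of the 5 genes was 238.7 ± 9.11 TPM in R7-I cells, 358.6 ± 27.5 TPM in R7-II cells and 254.9 ± 5.78 TPM in R7-III cells (SD, n = 3). Ikzf1 made up 71.5 ± 0.531% of that sum in R7-I, 63.7 ± 1.06% in R7-II and 73.9 ± 0.374% in R7-III. Ikzf3 made up 19.3 ± 0.505%, 27.3 ± 1.07% and 17.0 ± 0.016% in the same order. The share of Ikzf4 was 1.47 ± 0.141% in R7-I, 2.81 ± 0.181% in R7-II and 1.32 ± 0.111% in R7-III, while that of Ikzf2 was 1.51 ± 0.111%, 1.32 ± 0.122% and 2.14 ± 0.224%. Ikzf5 fell between, with 6.19 ± 0.083%, 4.93 ± 0.108% and 5.62 ± 0.365%. The shares of Aiolos and Eos were higher in every R7-II library than in any other library, and those of Ikaros and Pegasus were lower.

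All 10 pairs of members were compared between the 3 R7-II libraries and the other 6 by an exact two-sided permutation test of the log2 ratio, for which the smallest possible p is 0.0238. In 7 of 10 pairs the R7-II libraries did not overlap the others, and each of these had the smallest p (0.0340 after Benjamini-Hochberg adjustment). All 7 hold Ikzf3 or Ikzf4, so they are not independent of each other or of the calls of these 2 genes. Differences of R7-II were common: limma called 6358 of 11330 genes between R7-II and R7-I, and 6077 between R7-II and R7-III. The share of other gene pairs that separate R7-II in this way was not computed. The log2 ratio of Ikzf1 to Ikzf3 was 1.19, 1.32 and 1.16 in R7-II, 1.90, 1.93 and 1.84 in R7-I, and 2.11, 2.12 and 2.12 in R7-III, a mean difference of -0.78. The mean log2 ratio of Ikzf1 to Ikzf4 was 4.50 in R7-II and 5.71 in the other libraries, a difference of -1.21. Eos was further above the other clones than Aiolos, with an Ikzf3 to Ikzf4 difference of -0.43, but with 1 TPM added before division this was -0.21 with an exact adjusted p of 0.0595. The Ikzf3 to Ikzf5 ratio was higher by 0.85 and the Ikzf4 to Ikzf5 ratio by 1.27. The ratios of Ikzf2 to Ikzf3 and to Ikzf4 differed by -1.04 and -1.47. With any 1 library of R7-I or R7-III left out, the exact adjusted p of these 7 was 0.0510, which is what full separation gives with fewer libraries, and their directions did not change.

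The other 3 pairs, those among Ikzf1, Ikzf2 and Ikzf5, overlapped between R7-II and the other libraries. Their differences were 0.26 for Ikzf1 to Ikzf2 (exact permutation test, adjusted p = 0.208), 0.07 for Ikzf1 to Ikzf5 (0.429) and -0.19 for Ikzf2 to Ikzf5 (0.429). For R7-III against R7-I, 3 libraries against 3 cannot reach a p under 0.1, and the ratios are given as values. Helios RNA was higher relative to every other member in R7-III, without overlap: the ratio of Ikzf1 to Ikzf2 differed from that in R7-I by -0.45, and those of Ikzf2 to Ikzf3, Ikzf4 and Ikzf5 by 0.68, 0.66 and 0.64. The ratios of Ikzf1 to Ikzf3 and to Ikzf5 also differed without overlap, by 0.23 and 0.19.

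**Figure D4:**
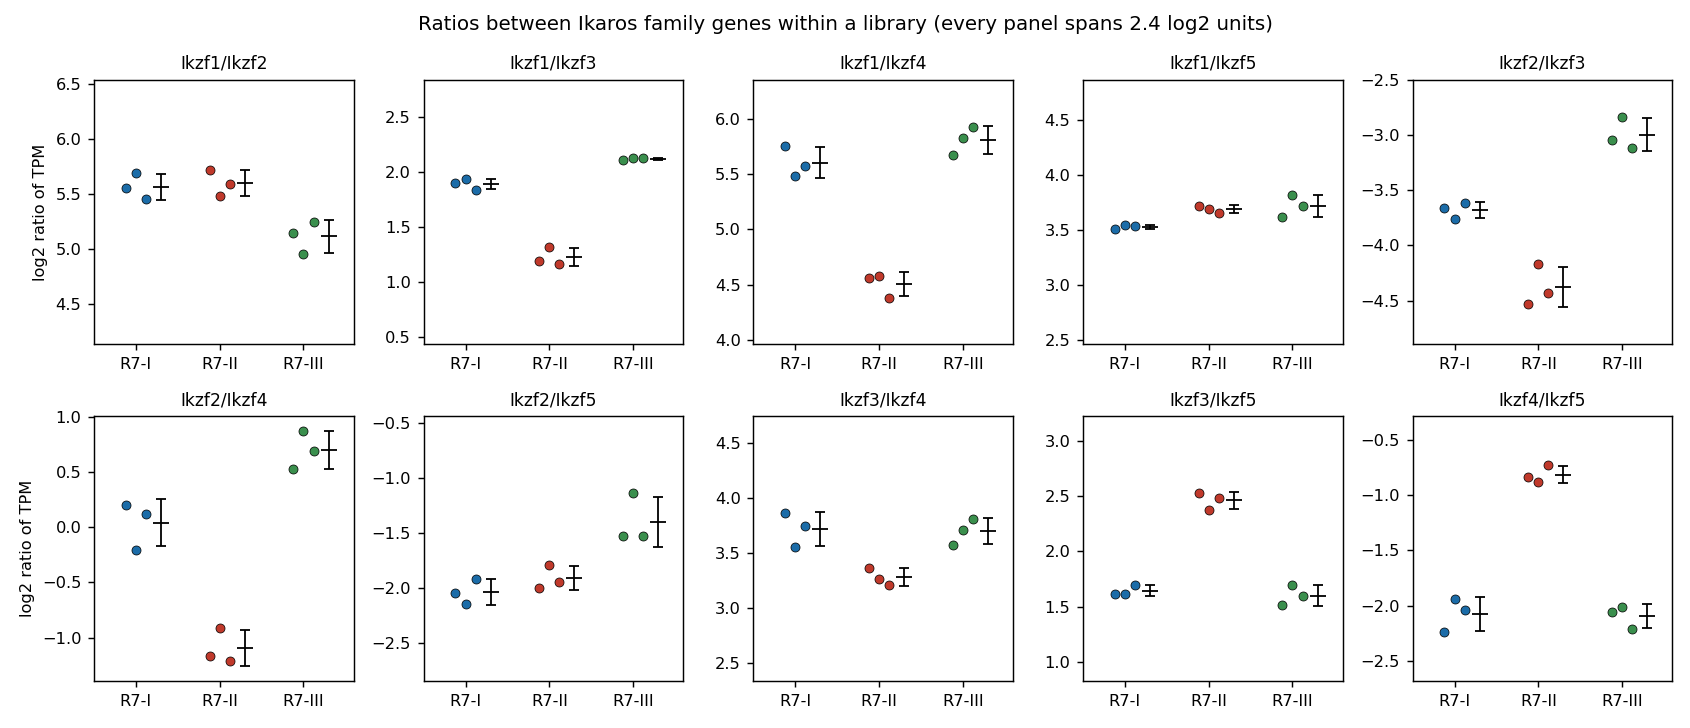
Log2 ratio of TPM (y axes, each spanning 2.4 log2 units) for the 10 pairs of family genes in each library (points) of the 3 clones, with the clone mean and SD in black (n = 3). R7-II stands apart in the 7 pairs that hold Ikzf3 or Ikzf4, and R7-III lies apart from R7-I in the 4 pairs that hold Ikzf2.

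Ikaros acts with large protein complexes. The list of 18 corepressor and remodelling partners covers the NuRD complex, Sin3, CtBP and the BRG1 ATPase. In R7-II, 7 of 18 were higher and 1 was lower than in R7-I, and 7 were higher and 2 lower than in R7-III, with medians of 0.09 and 0.06 against 0.17 and 0.12 over all genes tested. Of these, 6 were higher in both, for which the share over all genes was not computed, and 7 of 18 is near the 40.6% and 35.6% called higher over all genes. Chd4, the NuRD helicase and the most abundant partner, averaged 333.1 ± 2.64 TPM in R7-I cells, 357.2 ± 12.1 TPM in R7-II cells and 317.7 ± 5.56 TPM in R7-III cells. It was called against R7-III (0.17, adjusted p = 4.60e-04) and had an adjusted p of 0.0105 against R7-I, but with median-of-ratios scaling its difference from R7-I was -0.09 (adjusted p = 0.00631), in the other direction. Rbbp7, a histone-binding subunit, averaged 305.1, 304.4 and 333.8 TPM and was lower in R7-II cells than in R7-III cells by -0.13 (adjusted p = 3.99e-04). Mta2, another NuRD subunit, averaged 220.1, 233.8 and 232.2 TPM and was called in no comparison on TPM as deposited, but with median-of-ratios scaling it was lower in R7-II than in R7-I (-0.10, adjusted p = 0.00777) and R7-III (-0.12, adjusted p = 0.00241). Between R7-III and R7-I, 3 partners were higher and none lower (Chd3, Hdac1 and Rbbp7, chosen for naming after their values were seen). Over all genes tested, 6.96% were called higher and 1.45% lower there. With median-of-ratios scaling the 3 calls were lost (limma adjusted p = 0.0155, 0.0110 and 0.0726). Chd4 was then the only partner called, lower in R7-III than in R7-I (-0.12, limma adjusted p = 0.00561). The list's split turned with the scaling: after median-of-ratios scaling 5 were higher and 8 lower in R7-II cells than in R7-I cells, and 4 higher and 7 lower than in R7-III. The split over all genes turned as well, with 6181 and 6015 genes called, of which 46.1% and 46.8% were higher.

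A list of 11 genes holds the cereblon ubiquitin ligase, through which drugs degrade Ikaros and Aiolos, and the kinase and phosphatase that act on Ikaros. In R7-II, 4 were higher and 1 lower than in R7-I, and 4 were higher and 2 lower than in R7-III. Of these, 3 were higher in both, for which the share over all genes was not computed. Over all genes tested 40.6% and 35.6% were called higher, so that 4 of 11 is near the background, beside 15.5% and 18.0% called lower, and the medians of the list were 0.088 and 0.053 against 0.17 and 0.12 over all genes. With median-of-ratios scaling 1 was higher and 6 were lower than in R7-I, and 1 was higher and 3 were lower than in R7-III. Over all genes 6181 and 6015 were called with that scaling, of which 46.1% and 46.8% were higher. Between R7-III and R7-I limma called 0 of 11 on either scaling, with 1 gene at an unadjusted p under 0.05 and 2 after median-of-ratios scaling. The 3 most abundant genes changed little on TPM as deposited. Ppp1ca, a catalytic subunit of protein phosphatase 1, averaged 687.9 ± 10.4, 741.9 ± 15.3 and 717.6 ± 4.74 TPM in R7-I cells, R7-II and R7-III and was called higher in R7-II only against R7-I (0.11, adjusted p = 0.00208). That call was lost under median-of-ratios scaling (-0.08, adjusted p = 0.0409). Ddb1, the adaptor of the ligase, was called lower in R7-II cells than in R7-III cells (-0.13, adjusted p = 0.00291), as was Csnk2b, the regulatory subunit of casein kinase 2 (-0.11, adjusted p = 0.00695). Crbn, the substrate receptor itself, was named after its values were seen. It averaged 22.4 ± 0.895, 35.1 ± 2.79 and 21.9 ± 1.32 TPM and was higher in R7-II by 0.62 and 0.65 (adjusted p = 1.34e-05 and 1.05e-05).

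**Figure D5:**
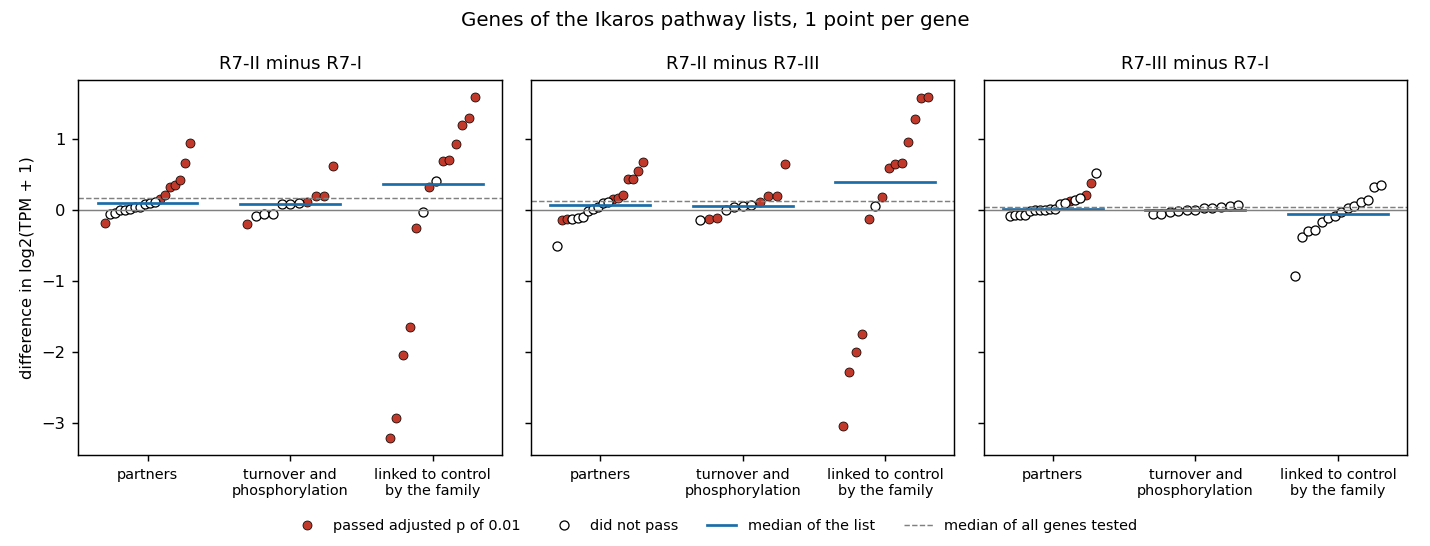
Difference in log2(TPM + 1) (y axis) of each tested gene of the 3 pathway lists (points, filled where the adjusted p passed 0.01), with the median of the list (blue) and of all genes tested (dashed). The lists of partners and of turnover genes lie mostly within 1 log2 unit of 0, and the genes linked to control by the family spread from -3.21 to 1.59 between R7-II and R7-I.

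The genes linked in earlier work to control by Ikaros family proteins moved in both directions. Of the 20 listed, 14 passed the filter on low values; Il10, Hes1, Dntt, Rag1, Igll1 and Cd4 did not. In R7-II, 7 were higher and 5 lower than in R7-I, and 8 were higher and 5 lower than in R7-III. In both comparisons 7 were higher and 5 lower, for which the share over all genes was not computed. Over all genes tested 40.6% were higher and 15.5% lower in the comparison with R7-I, and 35.6% and 18.0% in that with R7-III, and the members of this list had been chosen with earlier results of these data known. The medians of the list were 0.37 and 0.39 against 0.17 and 0.12 over all genes. With median-of-ratios scaling 6 were higher and 5 lower in each comparison, beside 6181 and 6015 genes called in all, of which 46.1% and 46.8% were higher. Of the 14, 4 were lower and 3 higher by more than 2-fold in both, beside 1.11% and 4.17% of all genes tested. The 4 that were lower are genes of activated effector cells. Il2, the T cell growth factor, averaged 153.0 ± 11.96 TPM in R7-I cells, 48.8 ± 11.6 TPM in R7-II cells and 196.1 ± 26.6 TPM in R7-III cells. Ifng, interferon gamma, averaged 148.9 ± 14.4, 36.6 ± 11.2 and 122.0 ± 5.39 TPM. Tbx21, which encodes the transcription factor T-bet, averaged 45.6 ± 1.45, 5.25 ± 1.65 and 49.7 ± 6.66 TPM, and Gzmb, granzyme B, 698.1 ± 175.4, 73.8 ± 15.2 and 365.9 ± 91.0 TPM. On the log2 scale Tbx21 was lower in R7-II by -2.94 and -3.05 (adjusted p = 2.31e-07 and 2.01e-07), and Gzmb by -3.21 and -2.28.

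The 3 that were higher by more than 2-fold in both are genes of survival and of less differentiated cells. Bcl2, an inhibitor of apoptosis, averaged 11.6 ± 0.287, 37.2 ± 4.29 and 14.7 ± 0.832 TPM in R7-I cells, R7-II and R7-III, a difference of 1.59 and 1.28 (adjusted p = 9.46e-08 and 3.53e-07). Bcl6, a transcriptional repressor, averaged 3.34 ± 0.634, 9.60 ± 1.45 and 2.53 ± 0.386 TPM. Il7r, a receptor chain for interleukin 7, averaged 1.62 ± 0.449, 5.31 ± 2.58 and 1.01 ± 0.285 TPM. Bcl6 and Il7r are also expressed by B cells or their precursors, whose markers were higher in R7-II. Within R7-II, Bcl2 and Bcl6 had the order of the B cell marker sum, highest in replicate 1 and lowest in replicate 2. Il7r was highest in replicate 3. The part of other cells in the levels of these 3 genes was not tested. The 3 most abundant genes of the list changed less. Myc, a driver of growth, was lower in R7-II (545.5 ± 25.9 TPM) than in R7-I (648.3 ± 12.4 TPM) and R7-III (598.4 ± 11.3 TPM). The coreceptor genes Cd8a and Cd8b1 were higher in R7-II cells than in R7-I cells by 0.32 and 0.69 and than in R7-III by 0.19 and 0.67, but Cd8a did not pass the threshold with median-of-ratios scaling. Between R7-III and R7-I limma called 0 of the 14 genes on either scaling, with 5 at an unadjusted p under 0.05 and 4 after median-of-ratios scaling. Gzmb had the largest difference there, -0.93, with an adjusted p of 0.0184.

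Finally, the genes whose level most resembled each member over the 9 libraries were sought among the 8838 or 8839 other genes with a mean of at least 5 TPM, by the Pearson correlation of log2(TPM + 1). The 9 libraries fall into 3 clones, so these values are a description. Ikzf3 and Ikzf4 had many genes with a like pattern, 2417 and 2317 at a correlation above 0.9, and Ikzf1 and Ikzf5 had 1985 and 1517, but Ikzf2 had 25. The nearest genes to Ikzf3 were Tbc1d23, Ap3d1 and Mark2, each at 0.999. Among those nearest to Ikzf4 were Ikbke, a kinase of the interferon response (0.998), and Cyld, a deubiquitinase (0.997). Ikbke averaged 37.5 ± 1.83 TPM in R7-I cells, 90.6 ± 7.65 TPM in R7-II cells and 34.8 ± 1.15 TPM in R7-III cells. For Ikzf1 they were Klc1 (0.994), Slc35b4 (0.991) and Tpp1 (0.990), and for Ikzf5 Avl9 (0.987), Zbtb43 (0.985) and Zfc3h1 (0.985). For Ikzf2 they were Mtch1 (0.962), Tox (0.961) and Ankrd13b (0.952). Tox, a nuclear factor of T cell development and of exhausted T cells, had the clone order of Helios, with 8.09 ± 0.677 TPM in R7-I cells, 10.9 ± 0.376 TPM in R7-II cells and 14.1 ± 0.808 TPM in R7-III cells. Among the members themselves, Ikzf3 and Ikzf4 were most alike (0.988), and Ikzf2 had correlations of -0.01 to 0.46 with the others.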

How the data were processed

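Polyadenylated RNA of sorted, ROP7-activated CD8 T cells was sequenced with unstranded single-end reads in 9 libraries, 3 for each clone. Levels were estimated by the authors with RSEM 1.2.11 on RefSeq genes of mm10 and deposited as TPM, rounded to 2 decimals, 1 row per gene symbol; their own tests used DESeq2 1.8.1 on counts, which were not used here. TPM keeps no depth, so no counting error is given. Each of the 9 columns carried the name of its sample.

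Genes with a maximum TPM above 1 were kept, and log2(TPM + 1) was fitted with limma 3.58.1 under R 4.3.3 (lmFit, then eBayes with trend; all 9 libraries in 1 fit; Benjamini-Hochberg over the 11330 genes; threshold 0.01). Ratios were tested by exact two-sided permutation with scipy 1.17.1 in Python 3.11.15, at an adjusted p of 0.05. Coding sequences, positions and exon overlaps are from GENCODE M21 and RefSeq annotations of GRCm38, the build of mm10.

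The members and all gene lists were chosen with earlier results of these data known. Named are all members, the 3 most abundant genes of each pathway list and those changed more than 2-fold in both comparisons with R7-II, the most abundant marker of each cell type, and the 3 genes most like each member, of which 1 is not reported here. Each result was recomputed with another pseudocount (0.1 or 5), another filter, median-of-ratios or quantile scaling, no variance trend, a threshold of 0.05, libraries of the compared clones alone, a block for the replicate number, and 1 library fewer.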

Additional observations from a re-analysis of the deposited data

How the results depend on the processing

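The values fix neither the depth nor the isoforms, so small differences at low TPM, as for Ikzf2, are the least certain. All calls of Ikzf1, Ikzf3 and Ikzf4 were kept under all 19 alternatives, with differences between R7-II and R7-I of 0.23 to 0.45, 0.88 to 1.15 and 0.82 to 1.496. The cause of each change below was not tested.

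Ikzf2 between R7-III and R7-I lost its call with median-of-ratios scaling (0.44, adjusted p = 0.0113), with no filter (0.48, 0.0188), with only the clones compared (0.48, 0.0126) and with quantile normalization (0.31, 0.0554), and it was 0.40 to 0.54 with each library left out in turn. A mean TPM of at least 5 removed it, so that the count of members called there was 0, as it was under those 4 settings, against 0 to 1 with each library left out. Ikzf2 between R7-II and R7-I passed at 0.05 (0.31, 0.0159) and turned with quantile normalization (-0.059, 0.619), which also made it lower in R7-II than in R7-III (-0.37, 0.00752). Ikzf5 against R7-I was 0.066 with median-of-ratios scaling (0.280), -0.026 with quantile normalization (0.673), 0.24 with only the clones compared (0.0109) and 0.20 to 0.28 with each library left out, and it lost its call in 4 of these 9, without R7-I replicate 2 or 3 and without R7-II replicate 1 or 3. Against R7-III it was 0.16 (0.0205) and 0.10 (0.105) with median-of-ratios scaling and quantile normalization.

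The replicate numbers did not pair the libraries: deviations of libraries with the same number correlated by -0.045 to 0.089. With the number as a replicate block, Ikzf2 between R7-III and R7-I lost its call (0.48, adjusted p = 0.0181), leaving 0 members called there, and 1 partner was called there instead of 3.

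The ratio of Ikzf3 to Ikzf4 was -0.21 (adjusted p = 0.0595) with 1 TPM added. With each library left out, the differences were -0.83 to -0.75 for Ikzf1 to Ikzf3, -1.25 to -1.14 for Ikzf1 to Ikzf4, -1.14 to -0.94 for Ikzf2 to Ikzf3, -1.58 to -1.37 for Ikzf2 to Ikzf4, -0.47 to -0.39 for Ikzf3 to Ikzf4, 0.81 to 0.89 for Ikzf3 to Ikzf5, and 1.23 to 1.31 for Ikzf4 to Ikzf5. These 7 kept their direction and their separation of libraries, but without any 1 R7-I or R7-III library their adjusted p was 0.0510, and without an R7-II library the smallest possible p is 0.0714.

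Counts called between R7-III and R7-I were 2142 genes at 0.05 and 436 to 1120 with each library left out, against 953. For partners in that comparison they were 6 at 0.05, 0 without the mean-variance trend and 0 to 3 with each library left out. They were 1 each with median-of-ratios scaling, no filter and quantile normalization. With median-of-ratios scaling the 1 partner was Chd4, lower in R7-III. For linked genes they were 3 at 0.05, 2 with only the clones compared and 0 to 2 with each library left out. Partners called between R7-II and R7-I were 13 with median-of-ratios scaling, and between R7-II and R7-III 15 at 0.05. Turnover genes called between R7-II and R7-I were 8 at 0.05, 3 with no filter, 2 without the trend and 2 to 5 with each library left out, and between R7-II and R7-III 2 without the trend, 3 with only the clones compared and 2 to 6 with each library left out.

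List medians moved too. In the order R7-II minus R7-I, R7-II minus R7-III and R7-III minus R7-I, median-of-ratios scaling gave -0.085, -0.069 and -0.040 for partners, -0.099, -0.080 and -0.051 for turnover genes, and 0.13 and 0.053 in the first 2 for linked genes. Quantile normalization gave 0.0067 and -0.033 for turnover genes in the first and last, and 0.20, 0.29 and -0.11 for linked genes. For linked genes a mean TPM of at least 5 gave -0.25, -0.13 and 0.028, a pseudocount of 5 gave 0.19 and 0.18 in the first 2, a pseudocount of 0.1 gave 0.51 and -0.11 in the first and last, and no filter gave 0.19 in the middle one. With each library left out, the partner medians were 0.063 to 0.12 and 0.053 to 0.095 in the first 2, and the turnover median was 0.00050 to 0.016 in the last. By Spearman rho in place of Pearson, 0 of the 3 most alike genes were shared for Ikzf1, Ikzf3 and Ikzf4, 1 for Ikzf5 and 2 for Ikzf2.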
